A study of Mus musculus with 59 samples.

Results

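The *Mage* genes encode proteins that share the MAGE homology domain. They fall into a germline class, whose members (*Magea*, *Mageb*) lie in X-linked clusters, are normally transcribed mainly in testis and are known in tumours as cancer-testis antigens, and a broadly expressed class that includes *Maged1* and *Maged2*. Several MAGE proteins bind RING-type E3 ubiquitin ligases such as TRIM28 and alter their activity. In somatic cells germline genes of this kind are kept silent by promoter DNA methylation and by repressive chromatin. Enzymes that write repressive histone marks include G9a, encoded by *Ehmt2*, which dimethylates histone H3 at lysine 9, and EZH2, the catalytic subunit of the Polycomb complex that trimethylates histone H3 at lysine 27.

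The set described here comprised 9 genes picked by symbol from the 22134 genes that had a listed transcript in the RNA-seq count data. Of these, 7 formed the germline class (*Magea2*, *Magea4*, *Magea5*, *Magea8*, *Magea10*, *Mageb4* and *Mageb16*) and 2 the broad class (*Maged1* and *Maged2*). All 9 were listed in at least 1 sample. Each gene was represented by its transcript with the highest mean raw count, and a transcript that a sample did not list was taken as 0.

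RNA-seq was performed on 14 single epiblasts, the pluripotent tissue of the early postimplantation embryo, dissected at E6.25 from untreated mice of mixed background. The *Ehmt2* cross gave 4 control epiblasts, labelled G9a+/+, and 4 knockouts, labelled G9a-/-, from 4 litters. The *Ezh2* cross gave 3 controls, labelled Ezh+/+, and 3 knockouts, labelled Ezh-/-, from 3 litters. According to the methods of the study the parents were heterozygous in both crosses, controls could be +/+ or +/-, and the *Ehmt2* line had also been crossed to an EGFP reporter driven by a *Pou5f1* fragment. The knockouts therefore lacked the gene in every tissue of the embryo from its start, and fewer cells that transcribe a gene cannot be told apart from less RNA per cell in these bulk samples.

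Depth lay between 30161171 and 68464895 counts per epiblast over all transcripts, and replicate 4 of both *Ehmt2* genotypes was the deepest in its group and formed a comparison set of its own. *Ehmt2* RNA was at 10.3, 11.1, 15.5 and 32.8 CPM (counts scaled to library size) in its 4 controls and at 4.73, 4.47, 3.22 and 9.46 CPM in its 4 knockouts. *Ezh2* RNA was at 53.4, 67.2 and 112 CPM in its 3 controls and at 11.8, 12.0 and 16.6 CPM in its 3 knockouts. Within its cross each targeted gene was therefore lower in every sample labelled as its knockout than in any control. The 7 epiblast markers, *Pou5f1* among them, had a count in all 14 samples. They summed to 2357 to 2701 CPM in *Ehmt2* controls and 1390 to 2087 CPM in *Ehmt2* knockouts without overlap. *Dnmt3b* made up most of these sums, with 313741 control counts against 37873 for *Fgf5*, the next highest. The mean log2(CPM + 0.5) of the 7 overlapped, at 6.97 in control 3 and 7.06 in knockout 4. By edgeR 0 of the 7 were called in this cross and 4 had an unadjusted p under 0.05, as had 5870 of 49872 transcripts. The log2 fold change was 0.28 for *Sox2* and negative for the others, among them *Nanog* (-0.11) and *Utf1* (-0.16). *Otx2* and *Dnmt3b* were below every control in every knockout, as were 2.53% of tested transcripts. Markers of neighbouring tissues were uneven. The summed level of 9 extraembryonic ectoderm markers was 29.0 to 131 CPM in *Ehmt2* controls against 27.6 to 663 CPM in *Ehmt2* knockouts. In the *Ezh2* cross it was 67.8 to 110 CPM in controls against 110 to 209 CPM in knockouts. In the *Ehmt2* cross edgeR called 4 of 8 tested markers higher (*Elf5*, *Bmp4*, *Esrrb* and *Sfmbt2*), against 0.441% of all tested transcripts. For *Elf5* and *Sfmbt2* the groups overlapped, and *Elf5* had no count in knockout 4. The 10 visceral endoderm markers summed to 1167 CPM in *Ezh2* control 2 and 2663 CPM in *Ezh2* knockout 1, against 56.7 CPM or less elsewhere. Y-linked RNA was present in *Ehmt2* controls 2 and 4 but in only 1 *Ehmt2* knockout, replicate 4, and in *Ezh2* control 2 but in all 3 *Ezh2* knockouts.

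The germline members lie at 4 places on the X chromosome (GRCm38). *Magea2* (chrX:155027201-155033292), *Magea5* (chrX:155053061-155061553) and *Magea8* (chrX:154985775-154995850) sit in a cluster with *Magea1*, *Magea3* and *Magea6*. *Magea4* (chrX:72222017-72222964) and *Magea10* (chrX:72381870-72386858) lie near each other, and *Mageb16* (chrX:79623231-79671435) and *Mageb4* (chrX:86250254-86256219) lie apart. *Maged1* (chrX:94535476-94541990) and *Maged2* (chrX:150806421-150812968) belong to none of these clusters. For *Maged1* and *Maged2* the transcript with the most counts was annotated as a retained intron, and reads were shared with the leading protein-coding isoform, which gave nearly the same counts.

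Reads were 40 nt long, so it matters how far these genes can be told apart. Between *Magea2*, *Magea3*, *Magea5*, *Magea6* and *Magea8* the coding sequences were 96.5% to 97.9% identical. The first 120 coding bases, read from the GRCm38 genome and its GENCODE annotation, show how close the copies are. Capitals mark bases that differ from *Magea2*, and every stretch lies on the minus strand.
Magea2, chrX:155028467-155028586: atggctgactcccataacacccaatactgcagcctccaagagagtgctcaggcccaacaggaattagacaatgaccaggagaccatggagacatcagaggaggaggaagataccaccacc
Magea5, chrX:155054275-155054394: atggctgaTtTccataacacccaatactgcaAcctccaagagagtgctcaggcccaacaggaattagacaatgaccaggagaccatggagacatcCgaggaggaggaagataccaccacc
Magea8, chrX:154986992-154987111: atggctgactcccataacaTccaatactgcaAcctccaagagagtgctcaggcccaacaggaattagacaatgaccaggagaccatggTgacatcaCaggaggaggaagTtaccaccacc
Magea3, chrX:154949386-154949505: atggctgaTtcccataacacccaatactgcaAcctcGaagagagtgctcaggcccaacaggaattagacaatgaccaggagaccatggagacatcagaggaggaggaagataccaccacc
Magea6, chrX:154924939-154925058: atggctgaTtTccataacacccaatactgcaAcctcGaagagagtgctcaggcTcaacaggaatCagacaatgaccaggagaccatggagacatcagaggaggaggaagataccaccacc

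In this stretch the copies differed from *Magea2* at 3 to 6 positions and shared runs of 55 to 83 bases with it, longer than a read. The share of all 40-base windows of the counted transcript that occurred at 1 place in the genome was 100% for *Magea10*, 95.5% for *Magea4*, 50.7% for *Magea8*, 44.6% for *Magea5*, 29.4% for *Mageb4*, 13.9% for *Magea2* and 12.8% for *Mageb16*. Of the *Mageb16* windows, 85.4% recurred within chr6:60769519-60771147, in the processed pseudogene *Mageb16-ps2*, and 70.6% of the *Mageb4* windows recurred within chrX:86299502-86305093, which holds *Mageb10-ps*. *Maged1* was unique throughout (100%) and *Maged2* nearly so (97.6%). Reads of the clustered genes could thus have been split between copies, and their separate values are less certain than those of *Magea10* and *Magea4*. How reads with several matches were counted is not given in the sources used here.

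The start regions of the members are shown because DNA methylation acts on CpG sites and the germline members moved together. The bases from 250 before to 50 after the start (RefSeq, GRCm38.p6) are printed with each CpG in capitals, all from the minus strand, for a pair of close copies (*Magea8* and *Magea2*), for a gene of the same cluster without a CpG (*Magea5*), for the germline member with the most unique sequence (*Magea10*) and for the broadly expressed *Maged1*.
Magea8, chrX:154995801-154996100: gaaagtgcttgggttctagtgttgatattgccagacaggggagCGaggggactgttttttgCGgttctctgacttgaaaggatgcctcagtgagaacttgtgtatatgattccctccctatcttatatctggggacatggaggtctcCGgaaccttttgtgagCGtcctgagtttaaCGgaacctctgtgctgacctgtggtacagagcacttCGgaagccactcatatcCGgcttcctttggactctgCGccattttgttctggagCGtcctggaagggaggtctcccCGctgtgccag
Magea2, chrX:155033243-155033542: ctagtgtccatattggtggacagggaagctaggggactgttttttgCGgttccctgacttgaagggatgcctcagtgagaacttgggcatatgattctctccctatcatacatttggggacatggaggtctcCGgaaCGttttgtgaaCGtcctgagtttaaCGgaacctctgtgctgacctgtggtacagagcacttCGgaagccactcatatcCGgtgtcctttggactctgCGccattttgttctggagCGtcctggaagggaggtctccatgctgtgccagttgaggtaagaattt
Magea5, chrX:155061504-155061803: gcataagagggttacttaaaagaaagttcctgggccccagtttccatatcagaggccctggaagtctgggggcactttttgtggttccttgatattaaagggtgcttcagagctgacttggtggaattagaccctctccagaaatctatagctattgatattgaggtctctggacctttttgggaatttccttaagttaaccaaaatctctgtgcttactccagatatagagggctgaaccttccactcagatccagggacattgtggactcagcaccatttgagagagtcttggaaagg
Magea10, chrX:72386809-72387108: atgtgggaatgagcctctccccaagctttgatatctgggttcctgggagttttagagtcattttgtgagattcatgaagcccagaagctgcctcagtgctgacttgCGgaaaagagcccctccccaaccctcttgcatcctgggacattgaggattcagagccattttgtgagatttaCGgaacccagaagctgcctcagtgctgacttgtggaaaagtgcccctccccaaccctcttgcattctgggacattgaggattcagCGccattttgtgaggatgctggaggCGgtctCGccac
Maged1, chrX:94541976-94542275: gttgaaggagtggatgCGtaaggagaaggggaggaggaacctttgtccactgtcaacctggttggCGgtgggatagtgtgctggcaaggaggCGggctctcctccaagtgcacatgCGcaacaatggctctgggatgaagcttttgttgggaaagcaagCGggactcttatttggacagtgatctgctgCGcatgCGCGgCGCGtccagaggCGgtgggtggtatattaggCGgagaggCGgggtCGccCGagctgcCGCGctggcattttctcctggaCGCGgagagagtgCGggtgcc

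The *Magea8* and *Magea2* start regions were 92.6% identical over 285 aligned bases and held 10 and 9 CpG sites. *Magea5* held 0, *Magea4* 2, *Magea10* 5, *Mageb16* 6 and *Mageb4* 11 CpG sites, while *Maged1* held 20 and the 4 annotated starts of *Maged2* held 8 to 19. The annotated start of *Magea4* is the atg of its coding sequence, in a transcript of 1 exon. Its 2 CpG sites lie after that atg, in coding bases, so its region cannot be read as a promoter. The median of 32851 such regions of the genome was 7 CpG sites, with quartiles of 3 and 20. The other germline members therefore ranged from none to above the median. Searched on both strands, the letters CACGTG, the E-box bound by MYC and MAX family factors, occurred in 7.15% of all regions and in none of the members' regions. The letters TCCCGC, an E2F-type motif, occurred in 20.0% of all regions and, among the members, at *Maged1* and at 1 of the *Maged2* starts. The 2 motifs can share no more than an end base.

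In the *Ehmt2* cross all 7 germline members were higher in the knockouts, and the broad members were not called. Tests were made with edgeR's quasi-likelihood test on all 49872 transcripts that passed a low-count filter, and calls required a log2 fold change beyond 1.4 besides an adjusted p (Benjamini-Hochberg) under 0.05. Over all those transcripts 0.441% were called higher (220) and 0.0581% lower (29), and with 1 transcript per gene 0.815% were called higher and 0.0873% lower. Their median log2 fold change was 7.05, against -0.01 over all transcripts. Every knockout lay above every control for each of the 7, while this held for 2.56% of tested transcripts. These genes passed the filter through their knockout counts, since nearly all control counts were at or close to 0. With such controls a transcript could pass only if every knockout had enough counts. Their lack of overlap was thus largely fixed by the filter and is not read as support. *Mageb16*, with RNA in every control, was less bound by this.

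*Magea10*, the germline member with the most unique sequence, had 0, 1, 0 and 0 counts in controls 1 to 4 and 113, 224, 120 and 262 counts in knockouts 1 to 4, that is 3.16, 6.38, 3.06 and 4.23 CPM in the knockouts. A single control read therefore stood against 719 reads, a 760-fold ratio of summed, depth-scaled counts with a 95% counting interval of 136 to 30044. The fitted log2 fold change was 8.98 ± 0.70 (SE) with an edgeR adjusted p of 0.000123. *Magea4*, the neighbour of *Magea10*, had 0, 0, 1 and 0 counts in controls and 32, 9, 58 and 123 in knockouts. It was lowest in knockout 2 (0.257 CPM) and highest in knockout 4 (1.98 CPM). Its ratio of summed counts was 235 (95% interval 41.7 to 9305) and its edgeR adjusted p was 0.0148 at a log2 fold change of 7.05 ± 1.09.

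Within the cluster, *Magea8* had the most counts, and it also had more unique sequence than *Magea2* and *Magea5*. It had 3, 0, 2 and 0 counts in controls and 330, 329, 321 and 177 counts in knockouts, and its 3 first knockouts were within 8.20 to 9.38 CPM while knockout 4 was at 2.86 CPM. The ratio of summed counts was 244 (95% interval 104 to 754), and the edgeR adjusted p of 5.2e-05 at a log2 fold change of 7.88 ± 0.54 was the lowest among the members. *Magea5* had 5, 1, 2 and 0 counts in controls and 218, 146, 110 and 36 in knockouts, and it too was lowest in knockout 4, at 0.581 CPM against 2.81 to 6.10 CPM in the others. Its log2 fold change was 6.12 ± 0.62 with an edgeR adjusted p of 0.00133. *Magea2* had no count in any control and 53, 116, 90 and 57 counts in knockouts. With the controls at the floor of 3 counts over the group, its level was at least 111-fold higher in the knockouts, and its edgeR adjusted p was 0.00428.

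Both *Mageb* members followed, at opposite ends of the scale. *Mageb4* had 0, 3, 0 and 0 counts in controls and 63, 34, 19 and 48 in knockouts (0.485 to 1.76 CPM), and its log2 fold change of 5.75 ± 1.04 carried the weakest edgeR adjusted p of the 7, 0.0349. The ratio of its summed counts was 57.8 (95% interval 19.4 to 283). *Mageb16* was the one germline member with RNA in every control, with 6, 30, 12 and 1 counts, against 772, 183, 275 and 61 counts in knockouts. In CPM the highest control stood at 0.635 and the lowest knockout at 0.984, so the groups did not overlap but came close. Its log2 fold change was 4.97 ± 0.59 with an edgeR adjusted p of 0.0031.

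**Figure D1:**
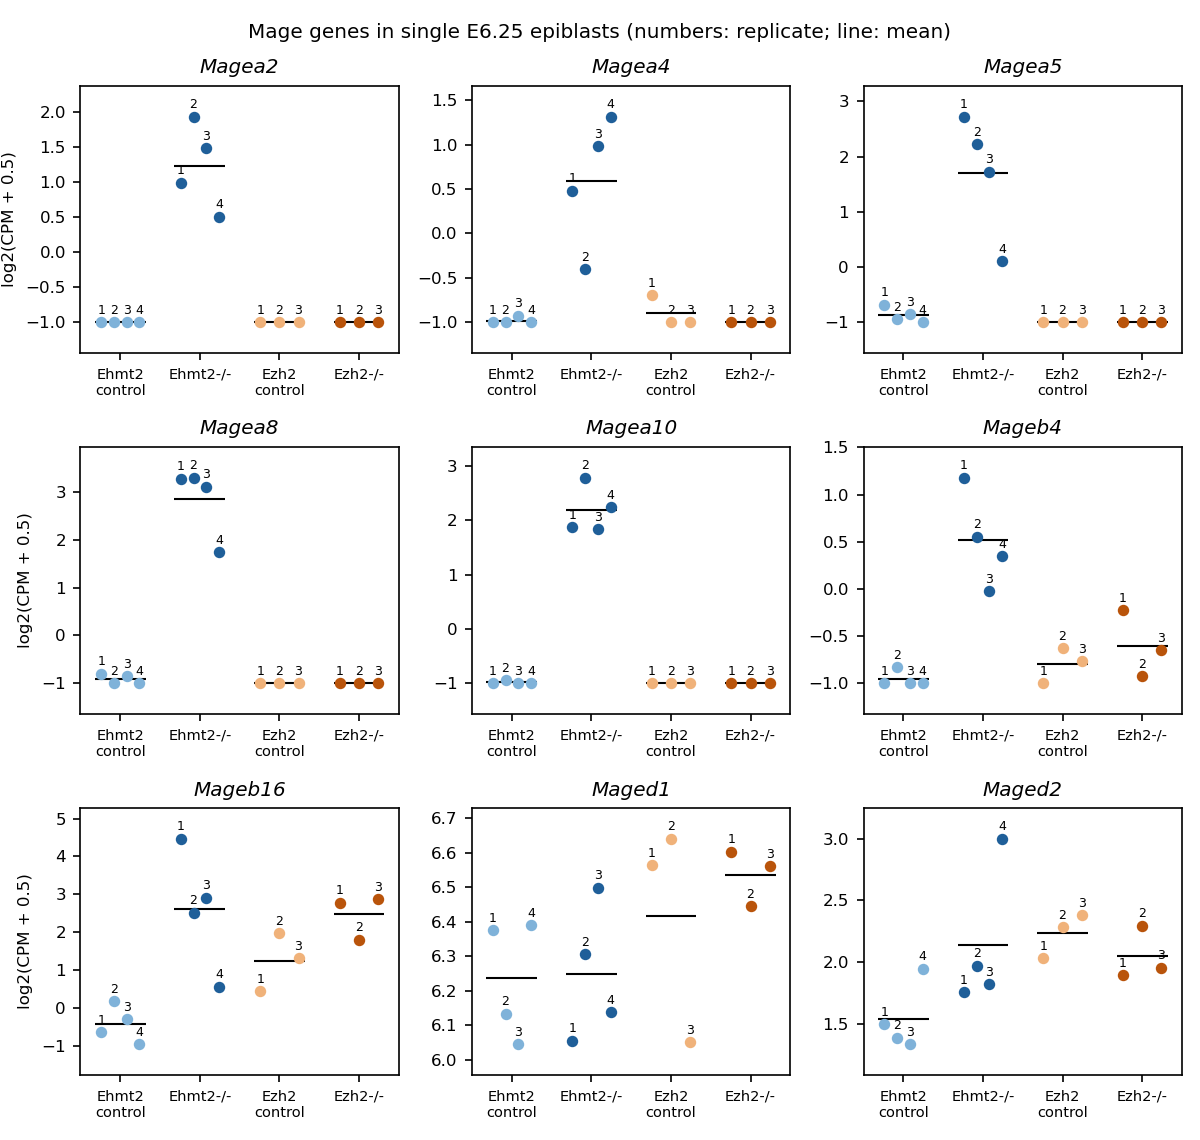
Each panel shows 1 *Mage* gene, with log2(CPM + 0.5) on the y axis and the 4 groups on the x axis, points for single epiblasts numbered by replicate and a line for the group mean; the y axes differ between panels. The 7 germline genes sit near the floor of -1 in *Ehmt2* controls and above them in all 4 *Ehmt2* knockouts, whereas the *Maged1* and *Maged2* groups overlap.

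*Maged1*, an adaptor protein of the broad class linked to neurotrophin receptor signalling, was by far the most abundant member. It had 3371, 3295, 2498 and 4621 counts in *Ehmt2* controls and 2360, 2757, 3522 and 4335 in knockouts, on average 75.3 ± 9.0 CPM and 76.1 ± 10.6 CPM (SD, n = 4 per group). The groups overlapped and the log2 fold change was 0.02 ± 0.13 with an edgeR adjusted p of 0.978. *Maged2*, mutated in a form of antenatal Bartter syndrome, had 95, 100, 77 and 186 counts in controls and 103, 120, 119 and 465 in knockouts. Its log2 fold change of 0.69 ± 0.27 had an edgeR adjusted p of 0.329. Knockout 4 stood at 7.50 CPM, apart from the 2.88 to 3.42 CPM of the other knockouts, and those lay between the 3 first controls (2.02 to 2.33 CPM) and control 4 (3.35 CPM) or just above it. The leading protein-coding isoforms gave log2 fold changes of 0.02 for *Maged1* and 0.65 for *Maged2*. Another 5 *Maged2* transcripts, with fewer counts, had larger log2 fold changes, of up to 1.54, in the *Ehmt2* cross (edgeR adjusted p of 0.363 to 0.530) and of -0.83 to -1.10 in the *Ezh2* cross, and none was called.

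Levels per kilobase of transcript correct for length but not for how much of each sequence is unique. Ranks of genes with close copies, here and within single knockouts, may therefore reflect how reads were assigned. The order of mean levels in the *Ehmt2* knockouts was *Maged1* (26.4 ± 3.7 CPM per kb, SD, n = 4), *Mageb16* (4.70 ± 4.83), *Magea8* (4.51 ± 1.87), *Magea10* (2.31 ± 0.85), *Magea5* (2.18 ± 1.49), *Maged2* (1.64 ± 0.86), *Magea4* (1.22 ± 0.79), *Magea2* (1.19 ± 0.62) and *Mageb4* (0.415 ± 0.228). Only *Maged1* stood clear of its neighbour in this order, and the ranges of all other neighbours overlapped. In the *Ehmt2* controls *Maged1* (26.1 ± 3.1 CPM per kb) and *Maged2* (0.954 ± 0.239) led, and the germline members were at 0.150 or less. Summed over the 7 germline members, the level was 0.343, 0.740, 0.446 and 0.018 CPM over controls 1 to 4, against 44.2, 29.7, 25.4 and 12.3 CPM over knockouts 1 to 4. The number of germline members with a count was 3, 4, 4 and 1 in the controls and 7 in every knockout. The make-up of that sum differed between knockouts, with *Mageb16* highest per kb in knockout 1, *Magea8* in knockouts 2 and 3 and *Magea10* in knockout 4.

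**Figure D2:**
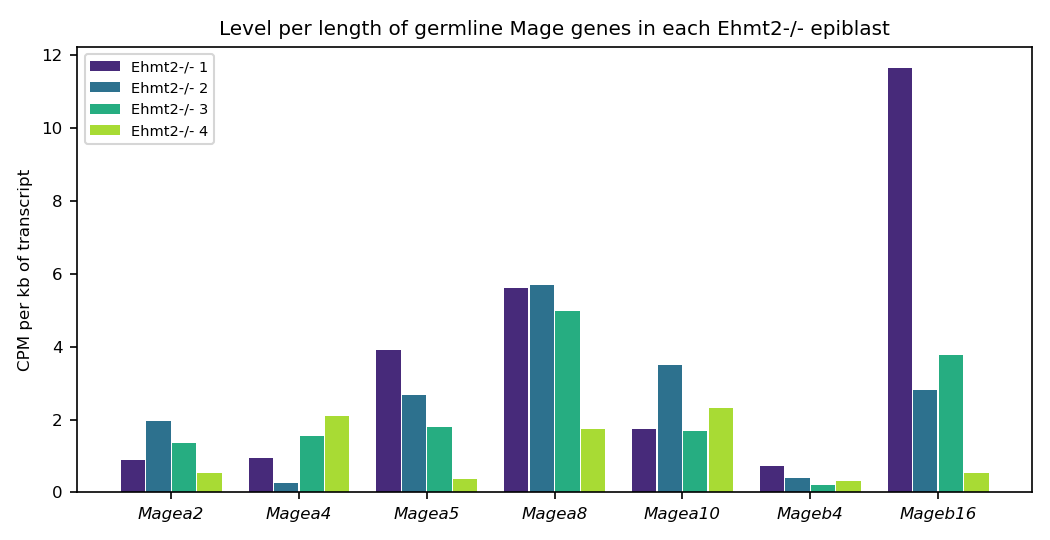
Bars give the level per length (CPM per kb of transcript, y axis) of each germline *Mage* gene (x axis) in *Ehmt2* knockouts 1 to 4. *Mageb16* ranges from 0.531 in knockout 4 to 11.6 in knockout 1, while *Magea4* is highest and *Magea5* lowest in knockout 4.

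In the *Ezh2* cross no member was called. Of 50855 transcripts tested 0% were called higher (0 by edgeR, with 3568 at an unadjusted p under 0.05 in either direction and 153 called higher by DESeq2) and 0.0118% lower (6), so the background in this cross is close to nothing. *Magea2*, *Magea5*, *Magea8* and *Magea10* had 0 counts in all 6 epiblasts. *Magea4* had 4 counts in control 1 and none elsewhere. *Mageb4* had 0, 5 and 3 counts in controls and 11, 1 and 5 in knockouts, and the groups overlapped (two-sided exact permutation test on CPM, p = 0.5, where 3 against 3 cannot go below 0.1). These 6 members did not reach the count filter, so no fold was fitted. At this depth the counts allow at most 3 reads over a group for the members at 0.

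*Mageb16*, *Maged1* and *Maged2* were the members that could be tested in the *Ezh2* cross. *Mageb16* had 30, 116 and 68 counts in controls and 198, 108 and 251 in knockouts, or 0.870, 3.43 and 1.99 CPM against 6.38, 2.99 and 6.83 CPM. Knockout 2 fell inside the control range. The log2 fold change was 1.36 ± 0.49, under the fold limit, with an unadjusted p of 0.0188 and an edgeR adjusted p of 0.606. *Maged1* averaged 86.4 ± 18.0 CPM over the controls and 92.4 ± 5.2 CPM over the knockouts (SD, n = 3 per group), and its log2 fold change was 0.10 ± 0.15 with an edgeR adjusted p of 0.944. *Maged2* averaged 4.23 ± 0.57 and 3.67 ± 0.65 CPM, which gave a log2 fold change of -0.20 ± 0.29 with an edgeR adjusted p of 0.934. For both genes the groups overlapped. The order per kb in *Ezh2* knockouts, again not corrected for unique sequence, was *Maged1* (32.1), *Mageb16* (2.91), *Maged2* (1.43) and *Mageb4* (0.0718), with the remaining members at 0. *Mageb16* and *Maged2* overlapped in range.

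**Figure D3:**
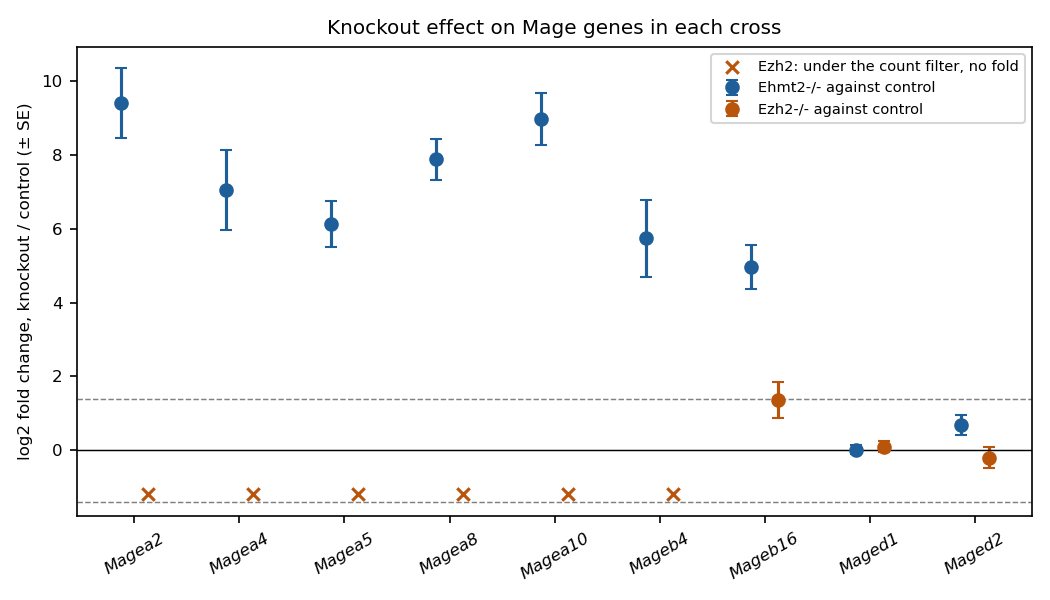
Points give the fitted log2 fold change of knockout over control (y axis) with its SE as bars for each member (x axis) in the *Ehmt2* cross (blue) and the *Ezh2* cross (orange), dashed lines mark the fold limit of 1.4, and crosses mark members without a fold. The 7 germline genes lie between 4.97 and 9.40 in the *Ehmt2* cross, and folds against controls near 0 counts depend on the small count the model adds.

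Whether the 2 knockouts acted differently was tested as the knockout effect in the *Ehmt2* cross minus that in the *Ezh2* cross over all 14 epiblasts. By edgeR's interaction term 0.0579% of 55248 transcripts differed (32), and no member was among them. The estimate was 3.62 ± 0.82 log2 units for *Mageb16* (adjusted p = 0.173), 10.68 ± 2.45 for *Magea4* (0.197), 4.67 ± 1.73 for *Mageb4* (0.479), 0.90 ± 0.37 for *Maged2* (0.531) and -0.08 ± 0.21 for *Maged1* (0.95). For *Magea2*, *Magea5*, *Magea8* and *Magea10* the term could not be estimated, because every *Ezh2* epiblast was at 0. DESeq2 called 5 of the 7 germline members in this test, namely *Magea2* (adjusted p = 0.0256), *Magea4* (0.008), *Magea8* (0.00717), *Magea10* (0.0054) and *Mageb16* (0.00238). *Magea2*, *Magea8* and *Magea10* had no count in the *Ezh2* cross, so for them the DESeq2 value gives no support for a difference between the knockouts, and *Magea4* had 4 counts there, all in 1 control.

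An exact permutation of the cross labels, added after the values were seen, compared the effects on log2(CPM + 0.5) without a count model. Exchanging these labels treats the crosses as alike in level as well as in knockout effect, and the comparison set was not taken into account. A low p is therefore not a test of the knockout effects alone. It was run on 9 members with 1225 relabellings each and is read here only for the 5 with a count in the *Ezh2* cross. The two-sided exact permutation p, not adjusted, was 0.00735 for *Mageb4*, 0.0367 for *Magea4*, 0.0882 for *Maged2*, 0.131 for *Mageb16* and 0.658 for *Maged1*. *Magea4* had 4 counts in 1 *Ezh2* control and 0 in every *Ezh2* knockout, so its value depends on the pseudocount and is no test of a difference. *Mageb4* had 11 counts or fewer in each *Ezh2* epiblast, and the size of its effect depends on the pseudocount too. The effect in the *Ehmt2* cross minus that in the *Ezh2* cross was 1.30 for *Mageb4*, 1.83 for *Mageb16* and -0.10 for *Maged1*. For *Magea2*, *Magea5*, *Magea8* and *Magea10* no difference between the knockouts was tested, and the data show only counts in every *Ehmt2* knockout and none in any *Ezh2* epiblast. The crosses also differed before any knockout. *Mageb16* was at 0.018 to 0.635 CPM in *Ehmt2* controls and at 0.870 to 3.43 CPM in *Ezh2* controls, and mouse line and processing cannot be told apart in that difference.

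Some of the 9 extraembryonic ectoderm markers moved with the *Ehmt2* genotype. *Eomes* did not move (log2 fold change -0.13, edgeR adjusted p = 0.947). *Gata3* (1.44), *Ascl2* (1.27) and *Cdx2* (4.04) were not called, and *Esx1* had 4 control and 2 knockout counts. Every knockout was above every control for *Bmp4* and *Esrrb*, as for 2.56% of tested transcripts. *Sfmbt2* was at 5.83, 6.24, 3.73 and 0.180 CPM over controls 1 to 4 but at 389, 53.8, 75.5 and 5.82 CPM over knockouts 1 to 4. *Elf5*, a trophoblast transcription factor, was at 59.6, 5.79, 12.0 and 0 CPM in knockouts 1 to 4 and at 0.525 CPM or less in controls, and *Cdx2* was at 6.38, 1.34, 1.15 and 0 CPM. Knockout 4 thus had no count of the last 2 genes, whereas *Bmp4*, *Esrrb* and *Sfmbt2* were higher there than in control 4. Its 9 markers summed to 27.6 CPM, below control 4 (41.7 CPM), while their mean log2(CPM + 0.5) was 0.62, above control 4 (0.19). The germline *Mage* sum was 12.3 CPM in knockout 4 and 0.018 CPM in control 4. With the mean level of the markers as a covariate, 3 germline members stayed past the edgeR threshold (*Magea2*, *Magea8* and *Magea10*), and *Magea5* (adjusted p = 0.0736), *Magea4* (0.122), *Mageb16* (0.176) and *Mageb4* (0.24) did not. Their log2 fold changes with the covariate were 5.49 for *Magea5*, 7.49 for *Magea4*, 4.76 for *Mageb4* and 2.70 for *Mageb16*, against 6.12, 7.05, 5.75 and 4.97 without it. Within each comparison set this covariate was higher in every knockout than in any control. Scaled over both crosses it was at 0.77 to 1.15 in controls 1 to 3 and at 2.76 to 4.17 in knockouts 1 to 3. The fit therefore cannot tell the markers from the genotype, and calls kept or lost in it decide nothing about them. The part of these markers in the germline *Mage* levels was not tested. In the *Ezh2* cross edgeR called 0 of 7 tested markers. Every *Ezh2* knockout was above every control for *Bmp4*, *Esrrb* and *Sfmbt2*, as for 6.46% of tested transcripts.

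**Figure D4:**
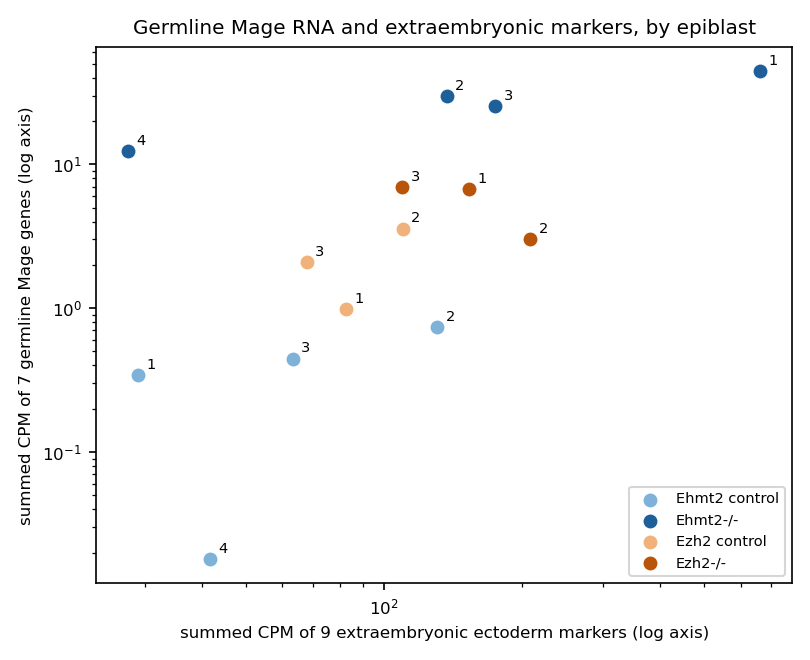
Each point is 1 epiblast, numbered by replicate and coloured by group, with the summed CPM of 9 extraembryonic ectoderm markers on the x axis and the summed CPM of the 7 germline *Mage* genes on the y axis, both on log axes. *Ehmt2* knockout 4 has the lowest marker sum (27.6 CPM), although its mean log2 marker level was above that of control 4, and a germline *Mage* sum of 12.3 CPM, above all controls and all *Ezh2* epiblasts.

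The members are X-linked, and the groups differed in Y-linked RNA. Among the 5 *Ehmt2* epiblasts with 5 to 17 Y-linked counts, every germline member was higher in the 3 knockouts than in both controls, and *Magea10* for example was at 3.06 CPM or more against 0. Among the 3 with 2553 to 4581 Y-linked counts, knockout 4 was above both controls for every germline member, by 4.23 CPM against 0.021 CPM at most for *Magea10* and by 0.984 against 0.635 CPM for *Mageb16*. The second comparison rests on 1 knockout, and for the germline members both follow from the lack of overlap over the whole cross. *Maged2* also lay higher in the knockouts on either side, at 2.88 CPM or more against 2.33 CPM at most and at 7.50 against 3.35 CPM, while *Maged1* did not. With Y-linked RNA as a covariate 5 germline members stayed past the edgeR threshold, and *Mageb4* (adjusted p = 0.0768) and *Magea4* (0.101) did not, with log2 fold changes of 8.63 and 6.64. The part of Y-linked RNA was not tested beyond this fit.

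Germ cell markers were also uneven. The 6 markers summed to 6.58 to 10.9 CPM in *Ehmt2* controls and 13.4 to 30.8 CPM in *Ehmt2* knockouts, and to 10.9 to 15.03 CPM and 16.8 to 29.3 CPM in the *Ezh2* groups. The sums did not overlap in either cross, but *Ddx4* alone gave 26.9 of the 30.8 CPM in *Ehmt2* knockout 4. The mean log2 level of the 6 overlapped in the *Ehmt2* cross, at 0.628 in control 1 and 0.554 in knockout 2. It did not overlap in the *Ezh2* cross. In the *Ehmt2* cross the groups also overlapped for *Dppa3*, *Prdm1* and *Dazl*. Of the 6, *Nanos3* and *Prdm14* were at 0.184 CPM or less in all 14 epiblasts. *Nanos3* had 15 counts over the *Ehmt2* controls and 0 over the knockouts, against 1 and 3 in the *Ezh2* cross. The other 4 passed the filter and had positive log2 fold changes in both crosses, and edgeR called 0 of them. At an unadjusted edgeR p under 0.05 were 1 and 2 of them, and 5870 of 49872 and 3568 of 50855 transcripts. *Ddx4*, a germ cell RNA helicase, was at 2.13 to 5.73 CPM in *Ehmt2* controls and at 7.67, 10.1, 8.86 and 26.9 CPM in the knockouts. Its log2 fold change was 1.44 (edgeR adjusted p = 0.111), and every *Ezh2* knockout was above every control as well (0.71, 0.565). Such a lack of overlap held for 2.56% of tested transcripts in the *Ehmt2* cross and 6.46% in the *Ezh2* cross. The part of these markers in the germline *Mage* levels was not tested.

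The calls were least firm for *Mageb4* and *Magea4*. *Magea2*, *Magea8* and *Magea10* passed the threshold under all 17 alternative settings run in the *Ehmt2* cross, *Magea5* under 16, *Mageb16* under 15, *Magea4* under 12 and *Mageb4* under 8. *Magea4* lost its call when control 1, 2 or 3 was left out (adjusted p = 0.0666, 0.0697 and 0.074), and *Mageb4* when control 1, 2 or 3 or knockout 1 or 2 was left out (0.109, 0.0619, 0.123, 0.103 and 0.0865). Without the term for the comparison set, which separates replicate 4, *Mageb16* (0.135) and *Mageb4* (0.115) were not called. Without replicate 4 of both genotypes all 7 were called.

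**Figure D5:**
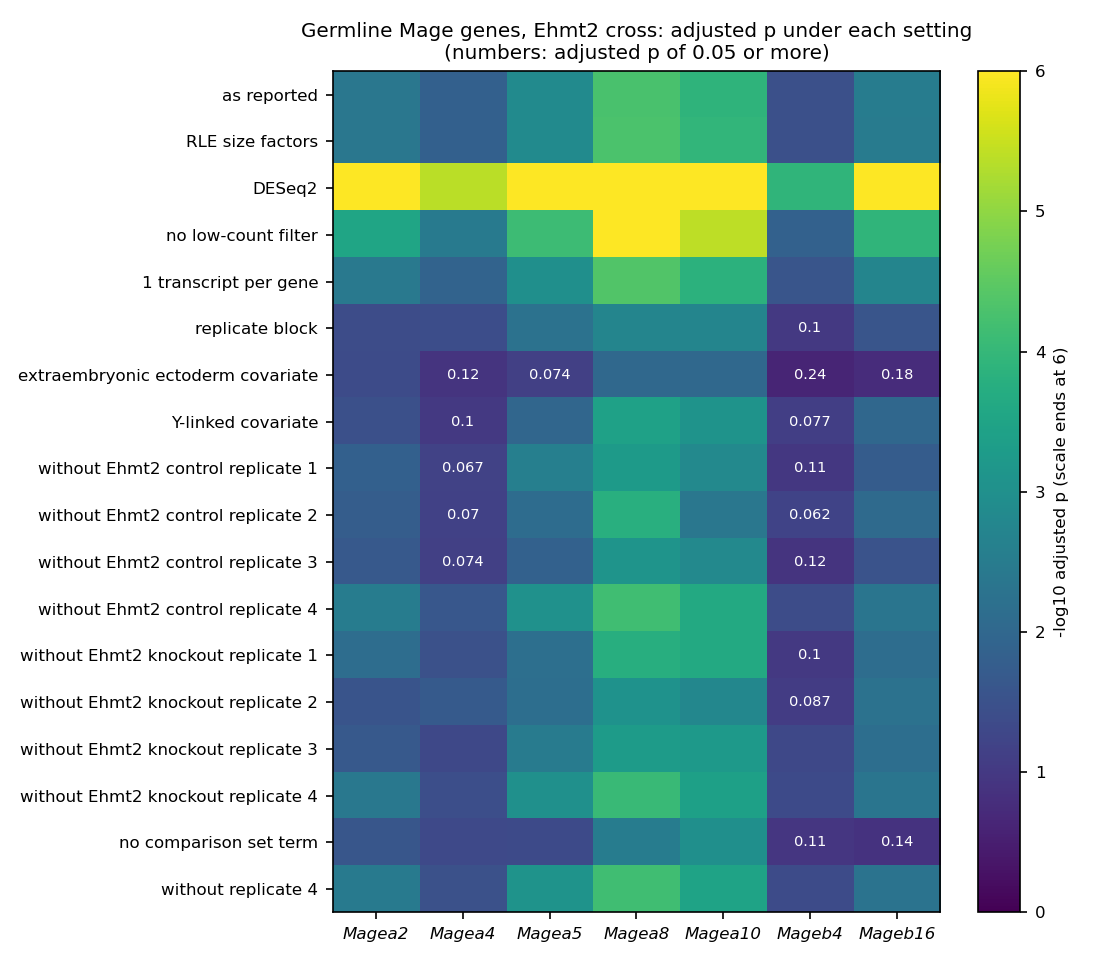
Colours give -log10 of the adjusted p (colour scale from 0 to 6) of each germline *Mage* gene (columns) in the *Ehmt2* cross under the setting reported and 17 alternatives (rows), with adjusted p values of 0.05 or more written in. *Magea2*, *Magea8* and *Magea10* have no such value, and *Mageb4* has the most.

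The rest of the family was taken as every other gene whose symbol starts with Mage together with *Ndn*, *Nsmce3* and *Tro*, 25 genes, of which 15 were listed and 7 tested in the *Ehmt2* cross and 6 in the *Ezh2* cross. None was called in either cross by edgeR, with 2 at an unadjusted p under 0.05 in each, as had 5870 of 49872 and 3568 of 50855 transcripts. The germline genes *Magea3* and *Magea6* of the *Magea2* cluster fell under the filter. *Magea3* had 0, 2, 0 and 0 counts in *Ehmt2* controls and 60, 36, 36 and 0 in knockouts, and *Magea6* had no count in any control and 33, 57, 15 and 7 in knockouts. Neither had a count in the *Ezh2* cross. Without the filter edgeR called both (adjusted p = 0.0232 for *Magea3* and 0.0135 for *Magea6*). *Magea6* was above every control in all 4 knockouts and *Magea3* in 3 of 4. *Mageb18* stayed at 7 counts or fewer in every epiblast, and *Mageb2* and 4 listed pseudogenes at 6 or fewer.

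*Magel2* and *Ndn* (necdin), imprinted neighbours of the Prader-Willi region, showed another pattern. *Magel2* had 226, 341, 164 and 242 counts in *Ehmt2* controls and 53, 78, 41 and 237 in knockouts, and 159, 168 and 123 counts in *Ezh2* controls and 210, 638 and 335 in knockouts. The groups did not overlap in CPM in either cross, where knockouts below controls occurred for 2.53% of transcripts in the *Ehmt2* cross and knockouts above controls for 6.46% (below for 6.61%) in the *Ezh2* cross. The log2 fold changes were -1.43 ± 0.38 (edgeR adjusted p = 0.142) and 1.35 ± 0.35 (0.439). By DESeq2 the adjusted p was 0.0116 in the *Ehmt2* cross, a call at -1.43, and 0.0201 in the *Ezh2* cross, where 1.35 was under the fold limit. The edgeR estimate of their difference was -2.78 ± 0.55 (0.106). Without replicate 4 of both genotypes *Magel2* passed the edgeR threshold in the *Ehmt2* cross, at -1.85 with an adjusted p of 0.0331. *Ndn* had log2 fold changes of -0.66 (adjusted p = 0.579) and 0.91 (0.619). *Tro*, *Nsmce3*, *Mageh1*, *Magee1* and *Magee2* were not called in the crosses in which they were tested, with log2 fold changes from -1.33 to 1.06.

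Genes that work with or around the members did not move past the thresholds. Of 9 genes for MAGE partners, among them the ubiquitin ligases *Trim28* and *Pja1* and the deubiquitinase *Usp7*, 0 were called by edgeR in either cross, with 1 at an unadjusted p under 0.05 in the *Ehmt2* cross and 0 in the *Ezh2* cross. Over all transcripts 5870 of 49872 and 3568 of 50855 had such a p. *Trim28* had log2 fold changes of -0.18 ± 0.11 and 0.04 ± 0.11, *Pja1* of -0.17 ± 0.26 and 0.33 ± 0.20, and *Usp7* of 0.15 ± 0.12 and -0.17 ± 0.11. Of 14 genes for factors that repress germline genes, such as the DNA methyltransferases and the subunits of the E2F6 and PCGF6 complex, 0 were called by edgeR in either cross, with 3 and 1 at an unadjusted p under 0.05. In the *Ehmt2* cross these were *Mga* (log2 fold change -0.37, edgeR adjusted p = 0.0853), *Dnmt3b* (-0.50, 0.0935) and *Dnmt3l* (1.12, 0.186). In the *Ezh2* cross it was *Setdb1* (-0.33, 0.622). Changes of this size lie under the fold limit, so a gene not called need not be unchanged. Over the 14 genes the median log2 fold changes were -0.11 and -0.03.

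No tested gene around the germline members was called. Outside the family, 20 protein-coding genes lay within 500 kb of a germline member. Of the 15 listed, 10 were tested in each cross and 0 were called by edgeR, with 0 at an unadjusted p under 0.05 in both. Their median log2 fold change was 0.04 in each cross. The range in the *Ehmt2* cross was from -0.66 for *Gk* to 1.57 for *Gm7173* (edgeR adjusted p = 0.516).

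Genes outside the family were ranked by the correlation of log2(CPM + 0.5) over the 14 epiblasts with the mean of the 7 germline members, among 15195 genes. The 5 highest were *Asz1* (Pearson's r = 0.982, Spearman's rho = 0.762), a germ cell gene of the piRNA pathway, *Mroh2b* (0.980 and 0.683), *Gm773* (0.974 and 0.819), *Timm8a2* (0.970 and 0.692) and *Nxf3* (0.967 and 0.766), an X-linked relative of mRNA export factors. *Gm773* is also on the X chromosome. These values describe a contrast that sets the 4 *Ehmt2* knockouts apart from the other 10 epiblasts, and the points share libraries and crosses. *Asz1* was at 7.54 to 23.4 CPM in *Ehmt2* knockouts with 7 counts or fewer in their controls, and *Nxf3* at 8.55 to 15.5 CPM with 13 counts or fewer.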

How the data were processed

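RNA of single E6.25 epiblasts (750 pg each) was amplified and sequenced by the authors, who trimmed reads to 40 nt, aligned them to GRCm38 with TopHat2 and counted them per Ensembl release 74 transcript with HTSeq-count (versions are not given in the sources used here). The deposited values are raw counts per transcript, and reads shared by isoforms count for each. The "not_aligned" entry in replicate 4 of the *Ehmt2* control and knockout (12.6% and 13.3% of their totals) was left out. Of 72515 transcripts, 70021 (96.6%) matched GENCODE vM21 names, and exon lengths came from there. Replicate numbers in the titles name embryos. P-values measure the spread between single embryos.

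Each cross was fitted with edgeR 4.0.16 (TMM, filterByExpr, quasi-likelihood test), with a term for the comparison set in the *Ehmt2* cross, and both crosses together for the difference. Calls needed a log2 fold change beyond 1.4, the limit used in the study, besides an adjusted p under 0.05. CPM was scaled within each cross, SE is the fold divided by the root of F, and the pseudocount was 0.5. Counting intervals (95%, exact binomial) and the floor of 3 counts cover counting error only. DESeq2 1.42.0, other size factors, no filter, 1 transcript per gene, covariates, a replicate block and leaving out samples were the alternatives. The scripts recovered changes planted in simulated counts of transcripts past the filter. The planted changes were smaller than the germline folds. Neither a comparison set effect nor controls held near 0 counts were simulated, so this check does not cover the germline members. *Xist* was not used here. No 2 samples of a group agreed within sampling noise (chi-square per degree of freedom of at least 17.7).

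Members and lists were chosen with earlier results of these data known. Named were the 9 members, the remaining family, partner, repressor and marker lists by their counts called, the targeted genes, genes within 500 kb by counts called, and the 5 genes most like the germline mean.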

Additional observations from a re-analysis of the deposited data

Results flagged for a closer look

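In the *Ehmt2* knockouts *Maged2* was at 7.50 CPM in replicate 4, far from the other 3. In the *Ehmt2* controls *Nsmce3*, the MAGE subunit of the SMC5/6 complex, was at 9.96 CPM in replicate 4, again far from the others. Chance flags about 1 in 20 groups of this kind, and both belong to the comparison set formed by replicate 4.

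*Magel2* moved one way in every *Ehmt2* knockout (log2 fold change -1.43) and the opposite way in every *Ezh2* knockout (1.35), and the edgeR test of that difference gave an adjusted p of 0.106 (0.0398 without the low-count filter and 0.000404 with DESeq2). With extraembryonic ectoderm markers as a covariate the 2 log2 fold changes were -0.54 and 0.92. That covariate was higher in every knockout than in any control of its comparison set, so these values do not separate the markers from the genotype.

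The exact permutation of the cross labels was added after the values were seen and not adjusted for 9 members. Because it treats the crosses as alike in level too, it does not test the knockout effects alone. The effect on log2(CPM + 0.5) was larger in the *Ehmt2* cross by 1.30 for *Mageb4*. That gene had 11 counts or fewer in each *Ezh2* epiblast. The values of 2.25 for *Magea2*, 3.81 for *Magea8* and 3.20 for *Magea10* are set against 0 counts in every *Ezh2* epiblast. That of 1.70 for *Magea4* is set against 4 counts in 1 *Ezh2* control and 0 elsewhere. The size of these 4 values depends on the pseudocount, and they are no test of a difference between the knockouts. Each of the 4 *Ehmt2* knockouts was above every control for these 5 genes, which with controls near 0 was needed to pass the low-count filter.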

How the results depend on the processing

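The number of transcripts called in the *Ehmt2* cross (220 higher and 29 lower) moved to 544 and 192 with DESeq2, 395 and 65 without the low-count filter, 112 and 12 with 1 transcript per gene, 51 and 1 without the comparison set term, 88 and 13 with the Y-linked covariate, 78 higher with the extraembryonic ectoderm covariate, and 391 and 45 without replicate 4 of both genotypes. Leaving out single samples gave 94 to 399 higher and 7 to 48 lower. The 7 germline calls became 3 with the extraembryonic ectoderm covariate and 5 to 7 when samples were left out. In the *Ezh2* cross (0 and 6) the counts were 153 and 25 with DESeq2, 20 higher without the filter, 2 and 0 with the extraembryonic ectoderm covariate, and 0 lower with the Y-linked covariate or 1 transcript per gene. Leaving out single samples gave 0 to 21 higher and 0 to 6 lower. For the difference between the crosses (19 and 13) they were 157 and 186 with DESeq2, of which 5 were germline members (0 by edgeR), 3 of them without a count in the *Ezh2* cross, 37 and 32 without the filter, 11 higher with 1 transcript per gene and 3 lower with the Y-linked covariate, and leaving out single samples gave 8 to 21 and 3 to 13. *Maged1* changed sign around 0 without being called. In the *Ehmt2* cross it was at -0.0027 with 1 transcript per gene, -0.0239 with the Y-linked covariate and -0.0806 to 0.1053 without single samples, in the *Ezh2* cross at -0.0805 and -0.0971 with the 2 covariates and -0.0677 to 0.2093 without single samples, and in the difference at -0.1909 to 0.0794 without single samples. The cause of these moves was not tested.

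Same-numbered controls and knockouts deviated together with correlations of 0.054, 0.108, 0.164 and 0.373 in the *Ehmt2* cross and -0.0007, -0.114 and 0.156 in the *Ezh2* cross, and not every sample correlated best with its own number, so the numbers were not taken as pairs. With the replicate block 99 transcripts were higher and 6 lower in the *Ehmt2* cross, where *Mageb4* was not called (adjusted p = 0.1), 3 higher in the *Ezh2* cross, and 10 higher and 3 lower in the difference. Between near-identical copies, and at members with a few counts, the counts limit what can be resolved.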
